A study of Mus musculus with 48 samples.

Results

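The genes described here are the immediate early transcription factors and regulators, the Krüppel-like factors (KLF) and the dual-specificity phosphatases (DUSP) measured in mouse NIH 3T3 fibroblasts. They were chosen by symbol: every gene named Klf or Dusp followed by a number, and 24 further names of serum-response genes. Of the 11313 symbols in the exon table, 43 were members: 11 KLF genes, 16 DUSP genes and 16 of the names listed singly (Fos, Fosb, Fosl1, Fosl2, Atf3, Maff, Mafk, Egr1, Egr3, Nr4a1, Srf, Ier3, Ccn1, Ccn2, Errfi1 and Sgk1). Jun, Junb, Jund, Egr2, Ier2, Ier5, Cyr61 and Ctgf were not analysed here under those symbols. Ccn1 and Ccn2 are the current names of Cyr61 and Ctgf.

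When serum or a growth factor reaches a resting fibroblast, receptors signal through RAS and the ERK, p38 and JNK kinases to factors that already sit on DNA, among them serum response factor (SRF) and CREB. Immediate early genes such as Fos and Egr1 are then transcribed within minutes, without new protein synthesis, and their short-lived mRNAs disappear soon after. DUSP proteins of the MAP kinase phosphatase type remove phosphate from those kinases and close the loop, and many KLF zinc finger factors are themselves serum or clock responsive. Serum shock is a standard way to set the circadian clocks of cultured fibroblasts to a common phase, so these genes stand at the entry point of the experiment.

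The series compared NIH 3T3 cells, an established line of mouse embryonic fibroblasts, labelled shCTRL (a control short hairpin RNA) and shBmal1 (a hairpin against Bmal1, the clock activator that pairs with CLOCK, listed as Arntl in the tables). Both were treated with 50% horse serum for 2 h and sampled at the time points labelled 24 to 46 h, every 2 h. At each time point 1 culture per line gave a total RNA library and a library of RNA labelled with 4-thiouridine (4sU), which marks newly made RNA. That makes 48 libraries in 4 groups of 12, with exon and intron values for each gene. The serum pulse, the hairpin vector and the labelling were common to every library, and no untreated culture was analysed here, so none of the values below is a response to serum. The 12 time points are the only replicates, each line is a single line, and an effect of Bmal1 cannot be told apart from any other difference between the 2 lines. In bulk libraries, fewer cells of a type and less RNA per cell cannot be told apart.

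The libraries held 48873013 to 76260143 reads, as recovered from the steps of the deposited values. Arntl exon signal in total RNA was 9.24 ± 6.02 RPKM (reads per kilobase of sequence, scaled to the library's read total; SD, n = 12) in shCTRL and 3.74 ± 0.723 in shBmal1, a log2 difference of -0.92 ± 0.0809 (SE, adjusted p = 3.59e-09). Of 11 fibroblast markers, 10 were in the tables, with a summed level of 6010 to 6830 RPKM in shCTRL and 4940 to 5910 in shBmal1. Of other cell types, Krt14 alone of 6 epithelial markers was in the tables (2.18 to 4.44 and 7.2 to 13.3 RPKM), with 3 of 4 leukocyte markers (13.4 to 20.5 and 16.9 to 23.2), 1 of 4 endothelial (0.244 to 0.547 and 0.315 to 0.872) and 1 of 4 muscle markers (0.54 to 0.973 and 1.48 to 1.98). The defining Ptprc, Epcam, Pecam1 and Adipoq were not analysed here, and the part of these marker differences in the results was not tested. The members were well covered by exon reads, with 59 reads in the lowest library of any member and a median of 3645. Intron reads were fewer (median 544), and for Ccn2 they numbered 0 to 16 per library.

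In total exons 1 culture stood apart for these genes. In the shBmal1 culture at 46 h, 20 of the 43 members reached their highest total exon level of the 12 time points, against 8.59% of all genes. At least 1.5 times the median of the other 11 libraries was reached by 7 members, against 1.81% of all genes. Atf3, a stress-inducible repressor of the ATF/CREB family, stood at 15.3 RPKM there, where the other 11 shBmal1 libraries ran from 3.29 to 4.96. Its ratio of 3.5 to the median of those 11 ranked 3 among 10912 genes. Egr1, a zinc finger factor among the first to respond to serum, was at 29.4 RPKM against 8.8 to 13.8, and Fos, the AP-1 partner of Jun, at 5.28 against 1.3 to 3.68. Klf4 was at 135 against 80.6 to 101 RPKM and Dusp8 at 4.57 against 1.71 to 3.04. None of these 5 overlapped with the other 11 libraries of the line.

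In the 4sU exon library of the same culture these 5 genes were again above all other shBmal1 libraries, as were 10 of the 43 members in all (8.01% of all genes), and 7 members were at least 1.5 times the median of the others (2.5%). Atf3 was at 21.0 RPKM in 4sU exons against 4.3 to 6.18 in the other libraries, Egr1 at 47.1 against 14.9 to 21.6, and Klf4 at 220 against 113 to 153. In 4sU introns 12 of 41 members were above all others (12.1% of all genes) and 9 at least 1.5 times their median (2.87%). Atf3 was 3.31 times, Egr1 2.59 times and Klf4 1.99 times the median of the other 11 there. In 4sU RNA of shBmal1 more members had their highest level at 24 h than at 46 h. At 24 h they were 14 of 43 in exons (17.4% of all genes) and 15 of 41 in introns (16.1%). In total exons the shCTRL culture at 46 h gave 0.979 times its own median for Atf3, 1.28 times for Egr1 and 1.22 times for Klf4. Of 21 other primary response genes listed alongside the members, 13 were also above all other shBmal1 libraries in total exons, among them Myc (106 against 38.7 to 52.1 RPKM), Ppp1r15a (44.3 against 13.2 to 18.9) and Gadd45a (102 against 23.8 to 54.9). Of the other lists, so were 3 of 8 AU-rich decay factors, 2 of 8 ERK feedback inhibitors and 2 of 8 partners of Sp and KLF factors. The same held for 1 of 12 genes in the list of SRF cytoskeletal targets and MRTF coactivators of SRF. It also held for 1 of 25 growth factor receptor and RAS-ERK genes and for 0 of 14 p38 and JNK genes. The shBmal1 culture at 46 h was singled out after its values were seen, and it is 1 culture without a replicate. Calls that were lost without the 46-h time point of both lines are named beside the results below. The plot of 46-h ratios shows how far this culture departs from the control culture of the same hour.

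**Figure D1:**
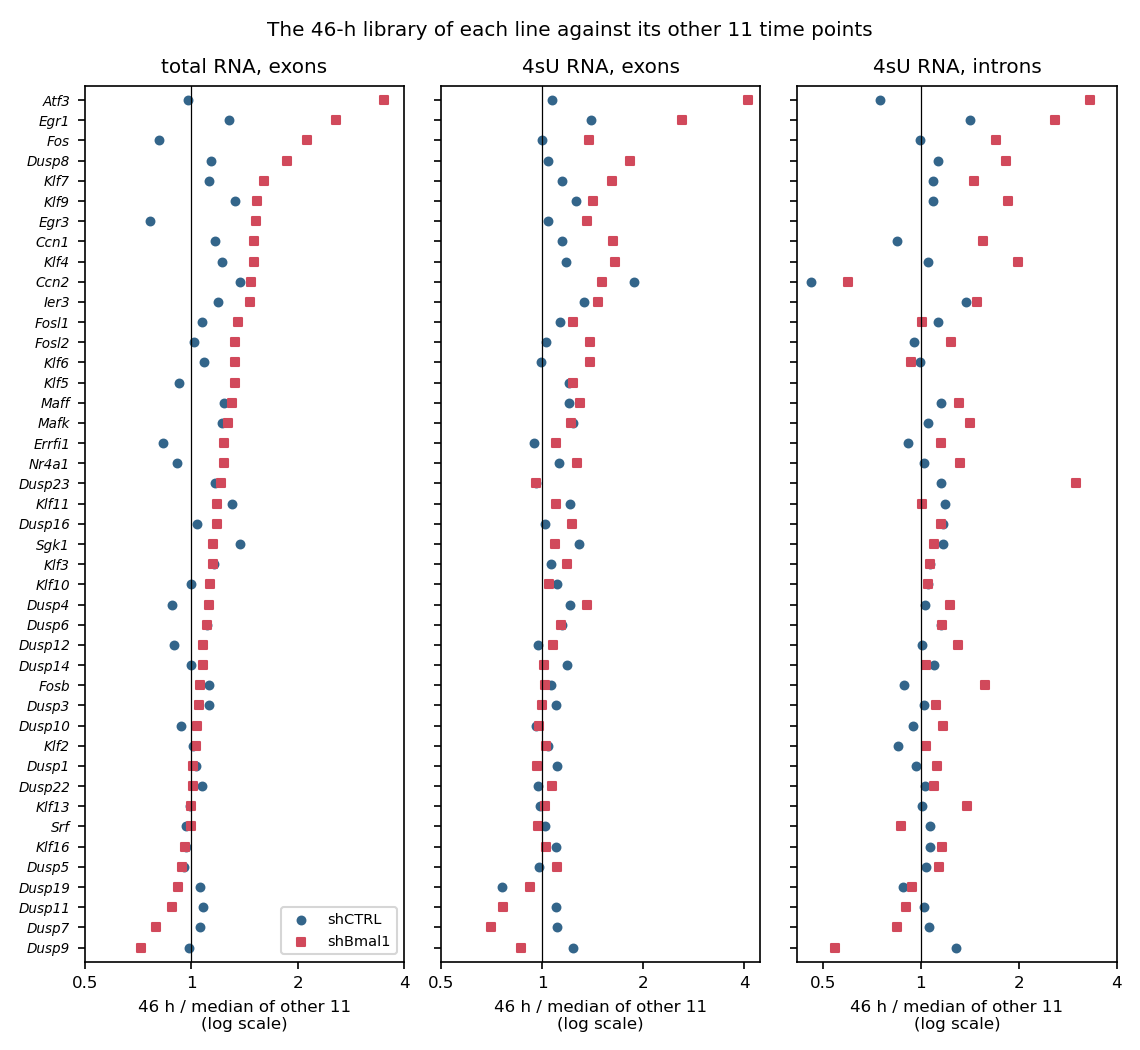
Level at 46 h divided by the median of the other 11 time points of the same line, on a log axis, for each member in total RNA exons, 4sU exons and 4sU introns (circles shCTRL, squares shBmal1, 1 library each). Atf3 and Egr1 lie highest in shBmal1 in both exon panels, at 3.5 and 2.56 in total exons, where shCTRL is at 0.979 and 1.28.

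Levels in the control line differed widely between members. On the per-length RPKM scale in shCTRL total exons, Klf4 was the most abundant (118 ± 10.3 RPKM; SD, n = 12), followed by Sgk1 (70.2 ± 12.4), a serum and glucocorticoid regulated kinase, Dusp1 (63.9 ± 6.03), Fosl2 (58.6 ± 2.49) and Klf2 (57.2 ± 4.96). Klf4 lay above the others at every time point, and the ranges of the other 4 overlapped between neighbours in this order. Egr3 (0.69 ± 0.0928) and Ccn2 (0.798 ± 0.213) were the least abundant. Fos itself stood at 2.08 ± 0.354 RPKM, far below its relatives Fosl1 (39.6 ± 4.84) and Fosl2. Over the 12 time points the median coefficient of variation of the members was 10.8% in shCTRL and 13.6% in shBmal1, beside 8.98% and 12.2% over all genes. Klf10, a TGF-beta inducible KLF, had 1.6% in shCTRL, ranging only from 29.2 to 30.8 RPKM, and in shBmal1 it ran from 31.2 to 41.3.

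Total exon RNA of 37 members differed between the lines. With limma on log2(RPKM + 0.1) and Benjamini-Hochberg adjustment over 10912 genes, 23 of 43 were higher in shBmal1, where 34.4% of all genes were, and 14 were lower, where 33.1% were. The median log2 difference of the members was 0.15, beside 0.01 over all genes. At a size of at least 0.5, 6 were higher (5.15% of all genes) and 2 lower (8.28%). The ranges of the 2 lines did not overlap for 3 members, Ccn1, Dusp5 and Klf10, beside 13% of all genes. With the RPKM as deposited, without further scaling, the split was 26 higher and 10 lower.

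Of the 5 matricellular and feedback genes 4 were higher in shBmal1. Ccn2, a secreted matrix protein and a standard readout of YAP and SRF activity, ranged from 0.509 to 1.23 RPKM in shCTRL (median 0.773) and from 1.23 to 2.35 in shBmal1 (median 1.6). It was higher at 12 of 12 time points, by 0.97 ± 0.106 on the log2 scale (SE, adjusted p = 8.45e-08), a fold of 1.96. Ccn1, its close relative, ranged from 4.86 to 10.2 RPKM (median 8.15) and from 11.2 to 19.2 (median 12.9), with no overlap and a log2 difference of 0.82 ± 0.0777 (adjusted p = 1.03e-08). Ier3, an early response gene linked to ERK signalling and cell survival, was higher by 0.51 ± 0.0509 and Sgk1 by 0.27 ± 0.0407. Errfi1, a feedback inhibitor of the EGF receptor, was the 1 gene of the 5 in this group that was lower (-0.33 ± 0.0495, adjusted p = 6.95e-06), at 17.4 ± 2.22 RPKM in shCTRL and 13.8 ± 1.31 in shBmal1.

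The MAP kinase phosphatases divided by family member. Dusp5, a nuclear phosphatase of ERK, ranged from 1.83 to 2.93 RPKM in shCTRL (median 2.52) and from 3.11 to 7.55 in shBmal1 (median 4.38). Every shBmal1 library was above every shCTRL library, and the log2 difference was 0.87 ± 0.0791 (adjusted p = 5.70e-09). Dusp4, a nuclear phosphatase of ERK and JNK, was at 2.32 to 3.09 RPKM (median 2.67) and 2.72 to 7.04 (median 4.38), higher at 11 of 12 time points by 0.72 ± 0.0539 (adjusted p = 2.37e-10). Dusp9 (0.58 ± 0.0632) and the JNK and p38 phosphatase Dusp8 (0.42 ± 0.0976, adjusted p = 0.000791) were also higher, and so was Dusp6, the cytoplasmic phosphatase of ERK, by 0.27 ± 0.0437. Without the 46-h time point Dusp8 differed by 0.34 (adjusted p = 0.000548). Dusp1, the nuclear phosphatase with the broadest reach over the 3 kinases, was lower at 12 of 12 time points (-0.19 ± 0.0471, adjusted p = 0.00138), and Dusp16 was lower too (-0.15 ± 0.0533, adjusted p = 0.0197), a call lost without 24, 28, 32 or 42 h. In all, 6 of the 9 MAP kinase phosphatases were higher and 2 lower, and Dusp7 did not pass (0.10 ± 0.0477, adjusted p = 0.0686), but did without the 46-h time point (0.13, adjusted p = 0.0177).

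Of the 7 DUSP genes without that docking domain, 5 were higher: Dusp22 (0.32 ± 0.0407), Dusp14 (0.28 ± 0.0524), Dusp19 (0.22 ± 0.0453), Dusp12 (0.21 ± 0.0545) and Dusp3 (0.08 ± 0.0305, adjusted p = 0.0238). The call of Dusp3 was lost without 30, 32, 36, 38, 44 or 46 h. Dusp23 was lower (-0.41 ± 0.089, adjusted p = 0.000373). Dusp11, which acts on RNA, did not pass the test (-0.12 ± 0.0589, adjusted p = 0.0724).

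Both EGR genes were lower in shBmal1. Egr1 ranged from 12.2 to 27.2 RPKM in shCTRL (median 19.7) and from 8.8 to 29.4 in shBmal1 (median 11.5). It was lower in shBmal1 at 11 of 12 time points, the exception being 46 h, with a log2 difference of -0.69 ± 0.112 (adjusted p = 1.50e-05). Without the 46-h time point the difference was -0.77 (adjusted p = 2.32e-08). Egr3, its paralog, was lower by -0.51 ± 0.106 at levels under 1 RPKM in every library. The orphan receptor Nr4a1 was lower (-0.21 ± 0.0647, adjusted p = 0.00693), and Srf, the factor that drives many of these genes, was higher (0.24 ± 0.0502, adjusted p = 0.000241) at 12 of 12 time points.

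Of the 7 AP-1 and related genes 3 were higher and 1 lower. Fosl1, the FRA-1 gene, was higher at 12 of 12 time points (39.6 ± 4.84 and 54.8 ± 9.6 RPKM; log2 difference 0.46 ± 0.0646, adjusted p = 2.62e-06). Fos was higher by 0.38 ± 0.111 (adjusted p = 0.00452) with overlapping ranges of 1.53 to 2.45 and 1.3 to 5.28 RPKM, and by 0.30 (adjusted p = 0.0155) without 46 h. Fosl2 gave 0.11 ± 0.0419 (adjusted p = 0.0232), and this call was lost without 28, 32, 36, 38, 40 or 44 h. Mafk, a small MAF partner, was lower (-0.14 ± 0.049, adjusted p = 0.0189), a call lost without 26, 34 or 42 h. Atf3, Fosb and Maff did not pass. Their differences were 0.15 ± 0.13, 0.11 ± 0.0818 and 0.07 ± 0.0533, and that of Atf3 was -0.01 without 46 h.

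Among the 11 KLF genes, 6 were lower and 4 higher. Klf7 (-0.47 ± 0.0749), Klf9 (-0.43 ± 0.0679), Klf4 (-0.35 ± 0.0524), Klf13 (-0.30 ± 0.0352) and Klf3 (-0.25 ± 0.0368) were lower with adjusted p of 1.47e-05, 1.36e-05, 6.01e-06, 1.91e-07 and 5.00e-06. Klf9 is a glucocorticoid and clock responsive repressor, and Klf4 a factor of growth arrest and pluripotency. Klf4 was at 108 to 140 RPKM in shCTRL (median 115) and 80.6 to 135 in shBmal1 (median 90.0), lower at 12 of 12 time points, and only the 46-h value of shBmal1 entered the shCTRL range. Klf6 passed narrowly (-0.16 ± 0.0679, adjusted p = 0.0443), a call lost without any 1 of the time points 24, 28, 32, 36, 38, 40, 42 and 44 h. Klf10 (0.27 ± 0.0316, adjusted p = 1.66e-07), Klf5 (0.27 ± 0.0698), Klf2 (0.15 ± 0.0471) and Klf16 (0.15 ± 0.06, adjusted p = 0.0296) were higher, the last with its call lost without 28, 32, 36, 38, 42, 44 or 46 h. Klf11 did not pass (-0.05 ± 0.0394, adjusted p = 0.265).

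**Figure D2:**
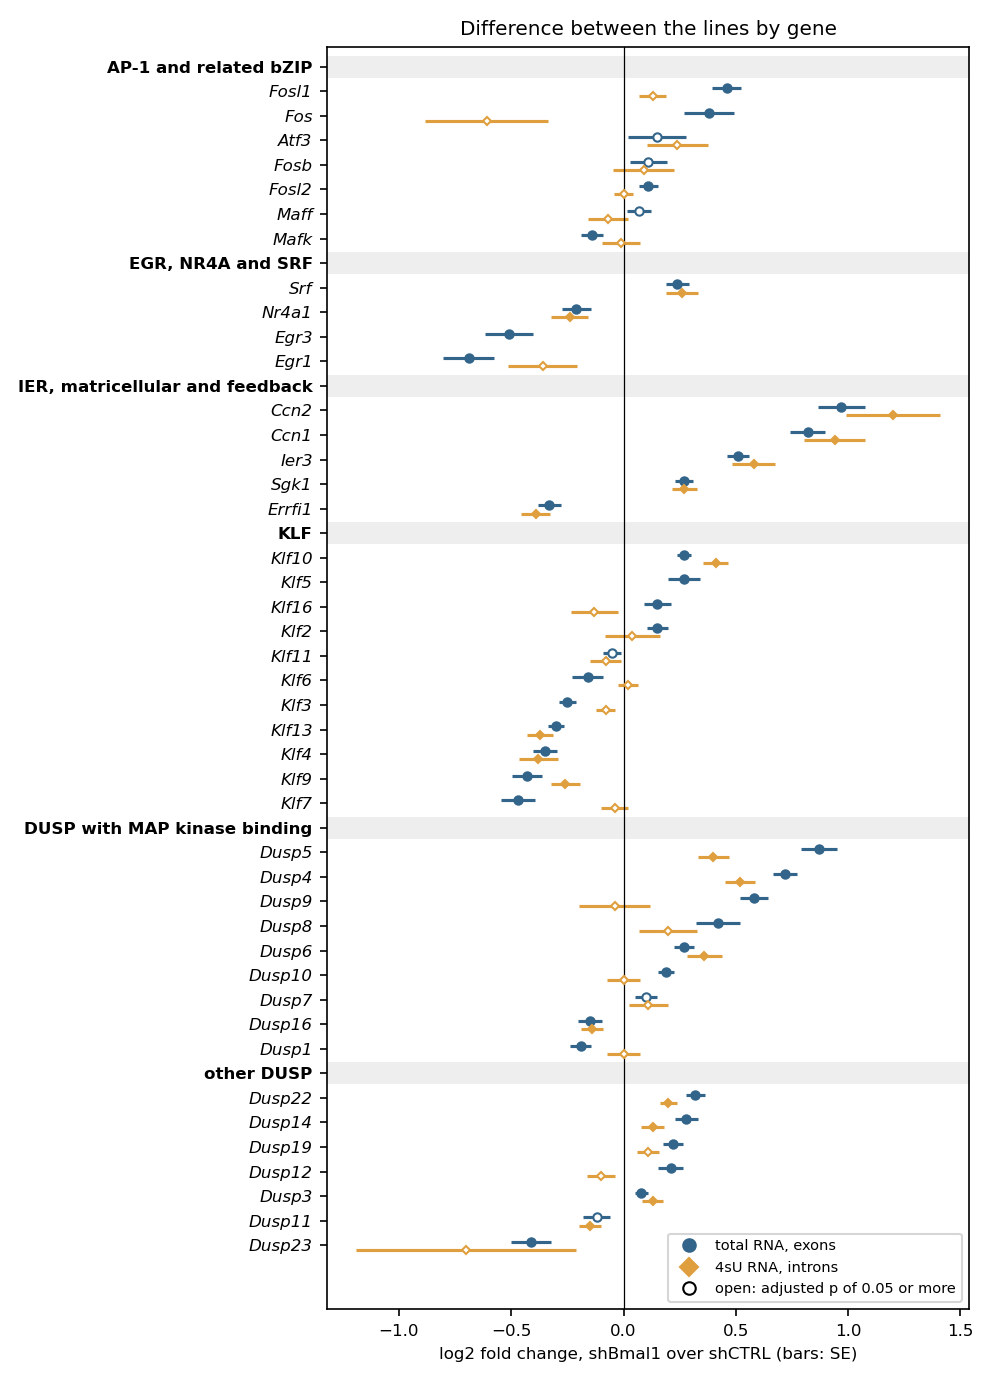
Log2 fold change of shBmal1 over shCTRL with its standard error for each member, grouped by role, in total RNA exons (circles) and 4sU introns (diamonds); open symbols did not pass an adjusted p of 0.05. Ccn2, Dusp5, Ccn1 and Dusp4 lie farthest to the right in total exons (0.97 to 0.72), and Egr1 and Egr3 farthest to the left (-0.69 and -0.51).

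Newly made RNA was then compared. In 4sU exons 23 of 43 members were higher in shBmal1 (27.5% of all genes) and 10 lower (26.9%), of which 6 and 1 had a size of at least 0.5 (3.95% and 5.2%). The ranges of the lines did not overlap for Ccn1 and Dusp22 (6.44% of all genes). Ccn1 (0.93 ± 0.0909), Dusp5 (0.81 ± 0.078), Ccn2 (0.73 ± 0.107), Ier3 (0.66 ± 0.0561), Dusp4 (0.57 ± 0.0708) and Dusp8 (0.55 ± 0.0829) led the higher ones, and Egr3 (-0.62 ± 0.0869) and Egr1 (-0.48 ± 0.123) were the lowest. The 4sU exon value of Dusp12 (0.37 ± 0.053), counted among the 23, is not comparable between the lines. Its deposited values rest on an exon length of 1363 bases in the shBmal1 4sU libraries and of 1804 bases elsewhere.

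Intron signal of 4sU RNA, the layer closest to transcription, gave fewer calls. Of 41 members above the filter, 12 were higher (22% of all genes) and 7 lower (22.4%), of which 4 and none had a size of at least 0.5 (2.77% and 2.49% of all genes), with a median of 0.0 for the members and for all genes. Ccn2 apart, Ccn1 (0.94 ± 0.137, adjusted p = 2.82e-05), Ier3 (0.58 ± 0.0952) and Dusp4 (0.52 ± 0.066) led. Klf10 (0.41 ± 0.0555), Dusp5 (0.40 ± 0.0687), Dusp6 (0.36 ± 0.0769), Sgk1 (0.27 ± 0.0554), Srf (0.26 ± 0.0713) and Dusp22 (0.20 ± 0.0368) followed. Ccn2 gave 1.2 ± 0.208 (adjusted p = 0.000177), but its mean in shCTRL lay below the filter. It was kept only through shBmal1, so its call, counted among the 12 and the 4, cannot serve as support. Its 4sU intron reads numbered 0 to 9 a library in shCTRL and 5 to 16 in shBmal1. Ccn1 was the 1 member without overlap between the lines (3.96% of all genes). Errfi1 (-0.39 ± 0.0647), Klf4 (-0.38 ± 0.0866), Klf13 (-0.37 ± 0.0582) and Klf9 (-0.26 ± 0.0647) were lower. Dusp16 was lower too (-0.14 ± 0.0489, limma adjusted p = 0.0293), a call lost without the 46-h time point. These calls rest on scaling each library to the median gene. The deposited intron values of the 12 shBmal1 4sU libraries were divided by a read total 1.35 to 1.39 times that of their exon values, and as deposited the median of all genes was -0.45, with 2 members higher and 31 lower.

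For several members the 4sU intron difference was far from that in total exons. Dusp5 was higher by 0.87 in total exons and by 0.40 in 4sU introns, Dusp9 by 0.58 against -0.04 ± 0.156, and Klf7 lower by -0.47 against -0.04 ± 0.0618. The Dusp9 intron value in 4sU RNA rests on 9 to 33 reads a library in shCTRL and 11 to 30 in shBmal1. In total RNA introns Dusp9 was higher by 0.50 ± 0.111. Fos had the widest gap, at 0.38 in total exons against -0.61 ± 0.275 in 4sU introns (adjusted p = 0.0807), the latter from 4 to 46 reads a library. For Ccn1 (0.94 ± 0.137 against 0.82) and Ccn2 (1.2 ± 0.208 against 0.97) the 4sU intron difference was the higher of the 2. In total RNA introns both genes gave 0.79, below their total exon differences. The difference between layers was not tested. Across total exons, 4sU exons and 4sU introns, 12 members were higher in all 3 (Ccn1, Ccn2, Dusp3, Dusp4, Dusp5, Dusp6, Dusp14, Dusp22, Ier3, Klf10, Sgk1 and Srf) and 4 lower in all 3 (Errfi1, Klf4, Klf9 and Klf13). The intron call of Ccn2 carries the filter limit given above. Of the 12, Dusp3 passed in none of the 3 without the 46-h time point (adjusted p = 0.064, 0.0519 and 0.097), nor with the time point as a block (0.0769, 0.0812 and 0.0631). Without 46 h Dusp14 did not pass in 4sU introns (adjusted p = 0.0798), and Srf not in 4sU exons (adjusted p = 0.0541). The layers come from the same cultures and are not independent. Another 17 were called in total exons and not in 4sU introns, and none was called in opposite directions. Egr1 introns gave -0.36 ± 0.153 (adjusted p = 0.067), or -0.41 (adjusted p = 0.00442) without 46 h. The intron lengths behind the Dusp1 and Atf3 values exceed the whole RefSeq span of those genes, so their intron signal covers more than the annotated gene. In total RNA introns, 14 of 40 were higher (29.3% of all genes) and 11 lower (26.8%), led by Ccn1 (0.79) and by Egr1 (-0.66 ± 0.118). Ccn2 (0.79) and Dusp23 (-0.62 ± 0.209) were kept by the filter only through the line where each is higher, and both are in the counts here. At a size of at least 0.5 there were 4 higher (4.11%) and 2 lower (3.7%), and Klf10 alone had no overlap between the lines (6.01%).

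Genes of the kinase pathway upstream, taken from other lists, were also compared between the lines. Of 25 growth factor receptors and RAS-ERK genes, 14 were lower and 9 higher in total exons (median -0.21), beside 33.1% and 34.4% of all genes. The PDGF receptors Pdgfra (-1.69 ± 0.0521, adjusted p = 3.17e-16) and Pdgfrb (-0.74 ± 0.0452), which receive the main mitogen of serum for fibroblasts, and the RAS exchange factor Sos2 (-0.80 ± 0.0637) and Rps6ka3 (-0.58 ± 0.0945), an ERK-activated kinase, were the lowest. Araf (0.47 ± 0.0565) and Elk3 (0.39 ± 0.0303), a ternary complex partner of SRF, were the highest, with Elk1 (0.27) and Hras (0.26). Of 8 other ERK feedback inhibitors 6 were lower, led by Nf1 (-0.46), Spred1 (-0.35), Spry1 (-0.34) and Rasa1 (-0.33), and Spred3 was higher (0.18).

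For each list that follows, the shares over all genes in total exons were 34.4% higher and 33.1% lower. Of 14 p38 and JNK genes 4 were higher, Mapkapk2 (0.44), Mapk14 (0.39), Map3k11 (0.29) and Map2k3 (0.23). Lower were 5, led by Map3k7 (-0.57), Map2k7 (-0.30), Mapk9 (-0.23) and Atf2 (-0.13). Of 21 other primary response genes 11 were higher and 5 lower (median 0.28). The antiproliferative Btg2 (1.45 ± 0.065, adjusted p = 9.13e-14), the receptor Epha2 (1.22 ± 0.062), Hbegf (0.70) and Plk3 (0.67) led the higher ones, and Gadd45a (-0.78), Trib1 (-0.38), Bhlhe40 (-0.24) and Mcl1 (-0.14) the lower ones. Another list of 12 held cytoskeletal targets of MRTF and SRF together with the coactivators Mrtfa and Mrtfb. Of these 7 were higher, with Acta2 (0.54), Tagln (0.52), Cnn2 (0.46) and Actb (0.45) first. Lower were 2, the coactivator Mrtfb (-0.30) and Fhl2 (-0.26). Of 8 factors of AU-rich mRNA decay, the route by which many immediate early mRNAs are lost, 2 were higher (Auh and Khsrp, both 0.24) and 2 lower (Zfp36l2, -0.49, and Tia1, -0.21). Of 8 partners of Sp and KLF factors 1 was higher (Sin3b, 0.30) and 3 lower (Wwp1, -0.46; Sin3a, -0.44; Ctbp2, -0.26).

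**Figure D3:**
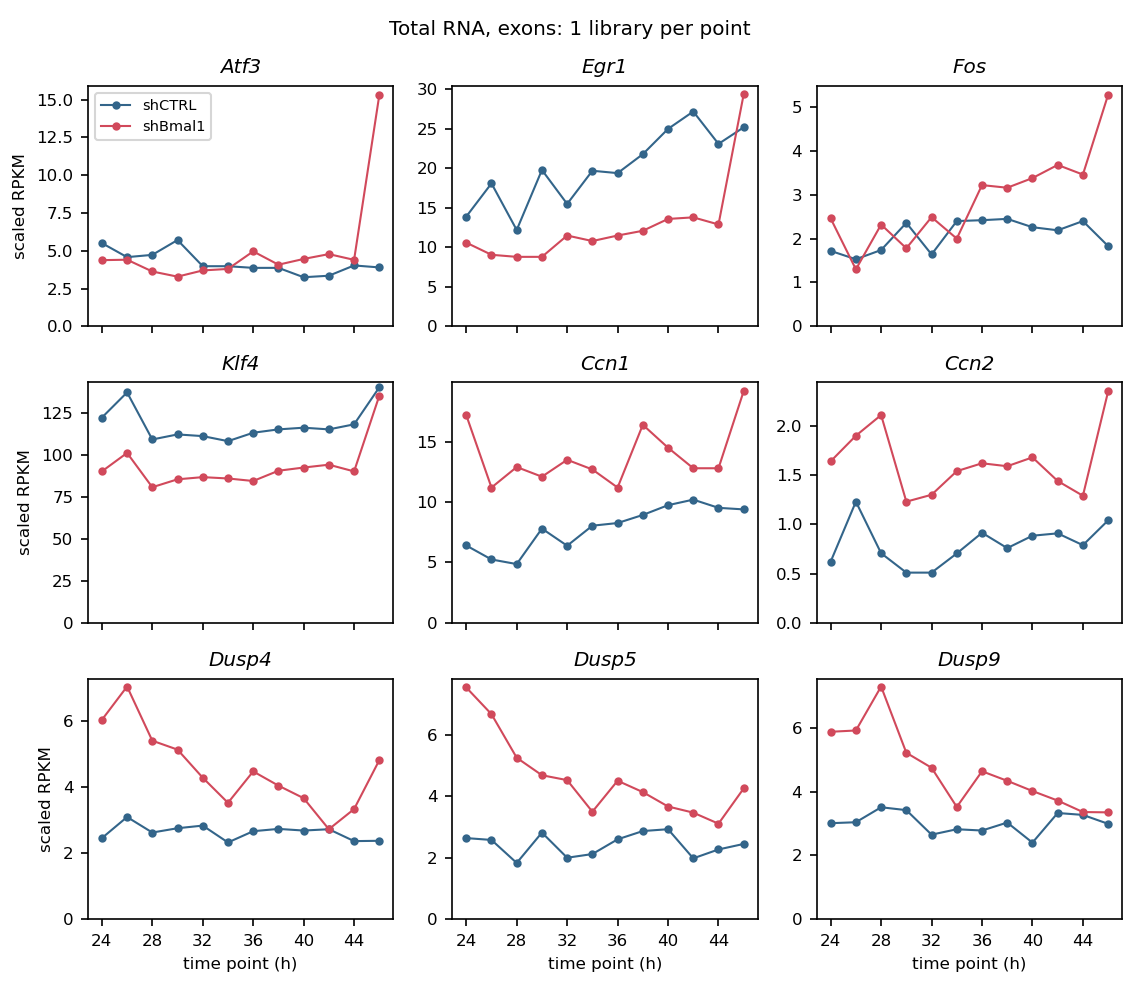
Scaled RPKM in total RNA exons at each time point, 1 library per point, for 9 members in shCTRL and shBmal1. Atf3 in shBmal1 stays between 3.29 and 4.96 until 44 h and reaches 15.3 at 46 h, while Dusp4, Dusp5 and Dusp9 in shBmal1 start at 6.03, 7.55 and 5.88 and are at 4.81, 4.26 and 3.35 at 46 h.

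Several members drifted over the course. In a straight-line fit, 3 members rose in shCTRL (2.46% of all genes): Ccn1 by 0.93 on the log2 scale over 22 h (adjusted p = 0.00184), Egr1 by 0.91 (adjusted p = 0.00805) and Mafk by 0.44 (adjusted p = 0.0197), the last lost without 24, 42 or 46 h. None fell in limma at an adjusted p of 0.05 (3.12% of all genes), and 2 had a falling slope at an unadjusted p below it. In shBmal1, 10 rose (11.5% of all genes) and 3 fell (13.5%). Fos rose by 1.33 (adjusted p = 6.86e-05) and Egr1 by 1.1 (adjusted p = 0.000311), and the others were Atf3 (0.97), Dusp8 (0.84), Klf7 (0.74), Fosl2 (0.69), Klf9 (0.69), Klf3 (0.42), Dusp1 (0.33) and Klf10 (0.27). Dusp1 lost its call without 26, 40, 42 or 44 h. Atf3 lost it without the 46-h time point (adjusted p = 0.348), while Fos, Egr1, Dusp8, Klf7 and Klf9 kept theirs (adjusted p of 0.00106, 0.00579, 0.0154, 0.0236 and 0.0396).

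The 3 that fell in shBmal1 were ERK phosphatases. Dusp9 fell by 0.94 over 22 h (adjusted p = 4.66e-05), Dusp5 by 0.94 (adjusted p = 0.000668) and Dusp4 by 0.85 (adjusted p = 0.000865). Dusp4 in shBmal1 was at 6.03 and 7.04 RPKM at 24 and 26 h, 2.72 at 42 h and 4.81 at 46 h, where shCTRL ran from 2.32 to 3.09. Dusp5 in shBmal1 was at 7.55 RPKM at 24 h and 3.11 at 44 h. For each of the 3, the ratio of shBmal1 to shCTRL was higher at 24, 26 and 28 h than at 40, 42 or 44 h. At 46 h Dusp4 stood at 4.81 RPKM in shBmal1 and 2.37 in shCTRL, a ratio close to that of 28 h (5.4 and 2.62). A difference in drift between the lines was not tested.

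For a daily rhythm, cosine and sine terms of 24 h were tested, with 12-h terms beside them. In shCTRL total exons 6 members passed (3.6% of all genes): Klf11, Sgk1, Dusp14, Ccn1, Errfi1 and Dusp3. Klf11, a TGF-beta inducible repressor, ran from 4.11 RPKM at 36 h to 6.63 at 24 h. Its amplitude was 0.30 on the log2 scale, or 1.51-fold from trough to peak, with a fitted peak at 47.4 h (adjusted p = 0.000231). Sgk1 was at 88.2 and 94.5 RPKM at 24 and 26 h, between 60.3 and 63.1 from 28 to 40 h, and at 86.1 at 46 h, with an amplitude of 0.27 (adjusted p = 0.000875). Dusp14 ran from 7.22 RPKM at 34 h to 13 at 24 h, with an amplitude of 0.28 (adjusted p = 0.00705). Klf11 and Sgk1 passed when any 1 time point was left out, and Dusp14 in all cases but 24 h (adjusted p = 0.0551).

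The other 3 were less firm. Ccn1 had the highest amplitude, 0.41 (adjusted p = 0.00939), but rose through most of the course and did not pass with a linear time term (adjusted p = 1), nor without 28 or 40 h. Errfi1 had its fitted peak at 36.2 h and Ccn1 at 40.3 h, where the other 4 peaked near 24 or 47 h. Errfi1 had an amplitude of 0.22 (adjusted p = 0.0278) and Dusp3 of 0.14 (adjusted p = 0.0259), and each lost its call without any 1 of 7 time points (24, 36, 38, 40, 42 and 44 h for both, with 34 h for Errfi1 and 26 h for Dusp3). A course of 22 h holds less than 1 full period, so a rhythm that repeats was not observed.

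In 4sU exons of shCTRL 4 members passed (1.98% of all genes): Klf11 (amplitude 0.37, peak at 24.3 h, adjusted p = 0.00132), Sgk1 (0.36, 47.8 h, adjusted p = 0.00233), Ier3 (0.30, 47.8 h) and Dusp14 (0.28, 25.1 h). Klf11, Sgk1 and Dusp14 thus passed in both kinds of RNA from the same cultures. In 4sU introns of shCTRL none passed in limma at an adjusted p of 0.05 (1.12% of all genes), and 6 had an unadjusted p below it, Klf11 and Sgk1 among them (adjusted p = 0.221 and 0.163).

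In shBmal1 total exons 8 passed (11.1% of all genes): Fos (amplitude 0.53, peak 41.7 h), Dusp4 (0.41, 27.3 h), Dusp5 (0.36), Dusp9 (0.34), Fosl2 (0.25), Ier3 (0.24), Dusp1 (0.18) and Klf3 (0.14). Dusp1 and Ier3 did not pass without the 46-h time point (adjusted p = 0.0628 and 0.0565). None of the 8 passed with a linear term (adjusted p from 0.114 to 0.995). The amplitude with that term was as large as before or nearly so for Dusp4 (0.47), Ier3 (0.28) and Dusp1 (0.16), smaller for Dusp5 (0.20), Dusp9 (0.18), Fos (0.15) and Klf3 (0.08), and 0.01 for Fosl2. In 4sU exons 13 passed (17.9% of all genes), led by Ccn2 (0.38), Dusp4 (0.31), Dusp5 (0.31), Fosl2 (0.31) and Ier3 (0.31), but between 2 and 20 when 1 time point was left out. Without 46 h only Fosl2, Ier3 and Mafk of the 13 still passed. None passed with a linear term (adjusted p from 0.106 to 0.717), although amplitudes such as those of Ccn2 (0.38), Ier3 (0.32), Dusp4 (0.29) and Nr4a1 (0.29) stayed near their values without it, and that of Fosl2 was 0.05. In 4sU introns 7 passed (5.82% of all genes), led by Klf4 (0.48, adjusted p = 0.00866), Klf11 (0.35) and Dusp1 (0.34), and Klf6 and Sgk1 of the 7 did not pass without 46 h (adjusted p = 0.0703 and 0.0802). None passed with a linear term, where the amplitudes of Klf4, Klf11 and Dusp1 were 0.39, 0.39 and 0.45.

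The difference in the 24-h terms between the lines was tested itself. In total exons it was called for 1 member, Dusp4 (0.38, adjusted p = 0.0375), beside 0.806% of all genes, and this call was lost without any 1 of 9 time points (all but 26, 32 and 34 h). Klf11 and Sgk1 were not called, so their rhythm is not shown to differ between the lines. In 4sU exons limma called none (1.06% of all genes), and 9 members had an unadjusted p below 0.05, Klf11, Sgk1 and Dusp14 among them. For 12-h terms limma called none in shCTRL (0.0% of all genes) or in shBmal1 (0.0183%), where 2 and 10 members had an unadjusted p below 0.05.

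**Figure D4:**
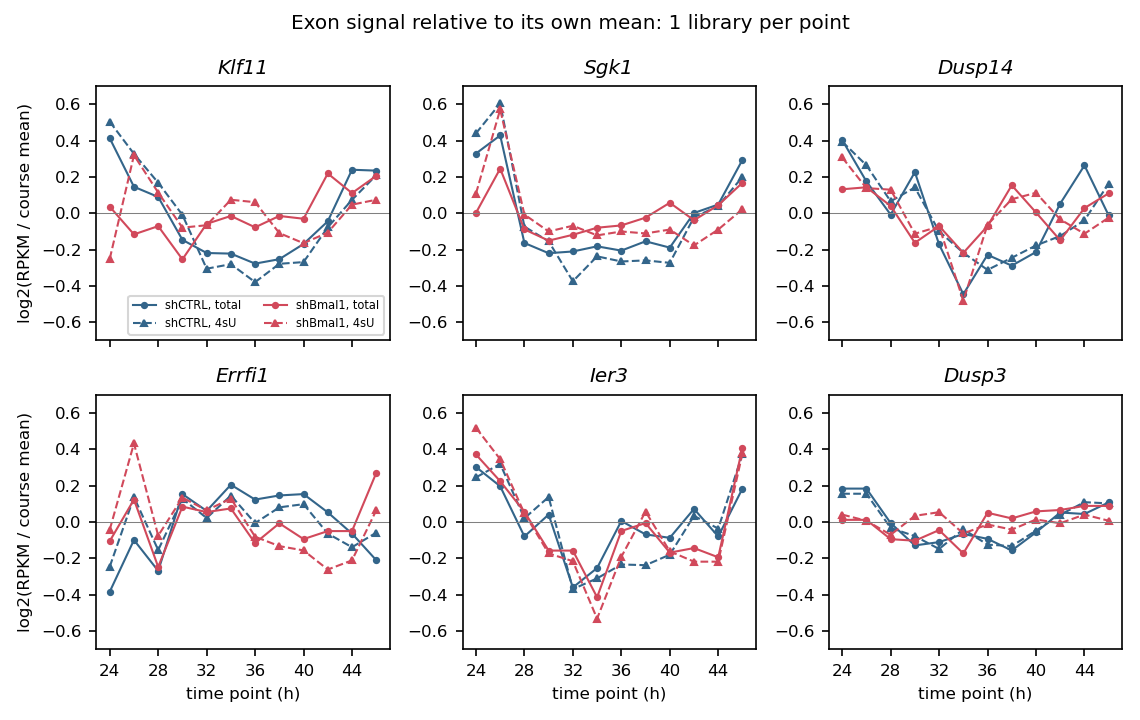
Exon signal of 6 members as log2 of the level over the mean of its own course, by time point, for total RNA (circles, solid) and 4sU RNA (triangles, dashed) in each line, 1 library per point. In shCTRL, Klf11 and Sgk1 lie below their course mean from 30 to 40 h in total RNA and above it at 24, 26, 44 and 46 h in both kinds of RNA.

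Promoter sequence was read for the members with an entry in the RefSeq promoter table of GRCm38.p6. Of 43 members 33 had an entry, with 41 promoters, and the 250 bases before each start were searched on both strands. The E-box CACGTG, the site bound by BMAL1 with CLOCK, was in 17.1% of the members' promoters and in 6.02% of all 32851 promoters. It was found in Dusp1, Klf11, Klf4, Klf6, Maff, Mafk and Sgk1. Klf11 and Sgk1 are shown with the E-box in capitals. In shCTRL total exons their 24-h fit passed with any 1 time point left out and with a linear time term. In shCTRL introns of newly made RNA the fit did not pass after adjustment for either gene. Dusp1, Klf4, Klf6, Maff and Mafk also carried the E-box and were not called for 24-h terms in shCTRL total or 4sU exons. Dusp14, Ccn1, Errfi1 and Dusp3 were called in shCTRL total exons and had a promoter entry without the E-box. A link between the E-box and a rhythm was not tested. The Klf11 window (chr12:24651132-24651187, plus strand) begins its E-box 214 bases before the start, and the Sgk1 window (chr10:21993640-21993674, plus strand) is that of 1 of several starts, 246 bases before it.

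Klf11 E-box: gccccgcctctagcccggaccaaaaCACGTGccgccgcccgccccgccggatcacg
Sgk1 E-box: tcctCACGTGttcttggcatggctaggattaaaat

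Dusp1 carried the E-box 126 bases before its start and, 143 bases before it, the cAMP response element TGACGTCA, which CREB and ATF proteins bind (chr17:26508568-26508640, minus strand). That element was in 9.76% of the members' promoters (Dusp1, Dusp8, Errfi1 and Maff) and 1.55% of all. The E-box and the element do not overlap.

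Dusp1 element and E-box: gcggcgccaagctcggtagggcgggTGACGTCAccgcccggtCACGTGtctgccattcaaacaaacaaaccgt

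The CArG box, the site of SRF, was in 4.88% of the members' promoters (Dusp5 and Srf) and 1.47% of all. Both carried 2 copies. Those of Dusp5 lie 82 and 72 bases before its start and abut each other (chr19:53529038-53529107, plus strand), and those of Srf 82 and 62 bases before (chr17:46556190-46556269, minus strand).

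Dusp5 CArG boxes: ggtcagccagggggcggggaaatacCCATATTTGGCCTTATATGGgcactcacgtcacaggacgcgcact
Srf CArG boxes: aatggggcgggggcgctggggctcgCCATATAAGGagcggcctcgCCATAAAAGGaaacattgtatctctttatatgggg

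The AP-1 site (TGACTCA or TGAGTCA) was in none of the members' promoters (4.46% of all), the EGR site GCGTGGGCG in 1 (Maff; 0.536% of all), and the GC box GGGCGG, a site of Sp and KLF proteins, in 73.2% (32.7% of all). These are matches of letters in a short window, whose base composition was not matched, and binding was not measured.

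Most members had much newly made RNA for their total. The log2 ratio of 4sU to total exon signal, scaled so that the median gene is near 0, was above 0 for 37 of 43 members in shCTRL, where 42.2% of all genes were, and below 0 for 3 (42.8%). At a size of at least 0.5 it was 24 members above (11.9%) and none below (15.4%). The members' median was 0.56, and the upper quartile of all genes 0.30. In shBmal1 37 were above (43.1%) and 4 below (43.2%), with a median of 0.57, and at a size of at least 0.5 it was 25 above (15%) and none below (17.1%). The 37 in shBmal1 include Dusp12 (0.10), whose 4sU and total values there rest on different exon lengths (1363 and 1804 bases) and are not comparable. The values are relative to other genes and do not give a half-life. The 4sU and total libraries share a culture, and a larger part of the RNA went to the pull-down in shBmal1 than in shCTRL.

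Most KLF genes stood high. All 11 were above 0 in shCTRL, with a median of 0.81, and 9 of them at least 0.5, from Klf3 (0.91 ± 0.0237; SE) and Klf6 (0.88 ± 0.0235) through Klf11 and Klf5 (both 0.86) to Klf4 (0.56 ± 0.0223), with Klf16 (0.36) and Klf2 (0.06) below. Klf3 and Dusp6 both lay at percentile 99.4 of all genes. Of the 9 MAP kinase phosphatases 8 were at least 0.5, with Dusp6 at 0.91 ± 0.0243 and Dusp10 at 0.75, and Dusp9 was at -0.10 ± 0.045. Fosl2 (0.89 ± 0.018), Errfi1 (0.83 ± 0.0217) and Sgk1 (0.71 ± 0.0231) were of the same order.

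Among the single immediate early genes the ratio was mixed. Fos was at 0.09 ± 0.0674 and did not pass the test, Fosb was at 0.20, Ier3 at 0.10, Nr4a1 at 0.32, Atf3 at 0.35 and Egr1 at 0.46 ± 0.0272 (percentile 85.9), while Egr3 was at 0.60 ± 0.0902 and Mafk at 0.60 ± 0.0303 (both percentile 92.9). Fosl1 was below 0 (-0.12 ± 0.0207), as was Dusp23 (-0.32 ± 0.0899). Of the other lists, that of SRF cytoskeletal targets and MRTF coactivators had a median of -0.67 and the other primary response genes 0.42.

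**Figure D5:**
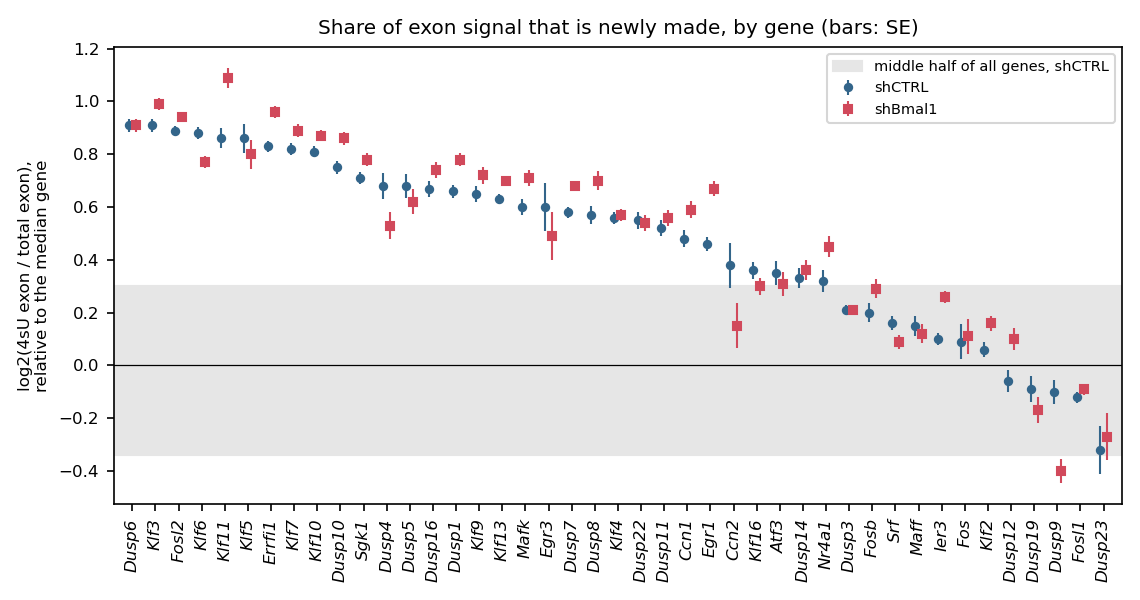
Log2 ratio of 4sU to total exon signal with its standard error for each member in shCTRL (circles) and shBmal1 (squares), ordered by shCTRL; the band runs from the lower to the upper quartile of all genes in shCTRL (-0.34 to 0.30). Dusp6 and Klf3 lie highest in shCTRL (both 0.91), and Fos (0.09), Fosl1 (-0.12) and Dusp23 (-0.32) lie in the band.

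Between the lines the ratio was higher in shBmal1 for 8 members (15.9% of all genes) and lower for 2 (12.1%), and none by 0.5 or more in either direction (1.01% and 0.883% of all genes). Klf11 (0.23 ± 0.0534, adjusted p = 0.00392), Egr1 (0.21 ± 0.0385, adjusted p = 0.000528), Ier3 (0.15 ± 0.0334), Errfi1 (0.13 ± 0.0307), Dusp1 (0.12 ± 0.0347), Dusp10 (0.11 ± 0.0366), Dusp7 (0.09 ± 0.0278) and Klf13 (0.07 ± 0.026, adjusted p = 0.0492) were higher. Dusp9 (-0.30 ± 0.0637, adjusted p = 0.0021) and Klf6 (-0.10 ± 0.0332, adjusted p = 0.0271) were lower. Dusp10 and Klf13 did not pass without the 46-h time point (adjusted p = 0.0897 and 0.123). For Egr1 the ratio was higher at 12 of 12 time points while its total exon level was lower at 11 of 12. That level is the denominator of the ratio, so the 2 observations are not independent.

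The ratio of 4sU to total exon signal also had 24-h terms in shBmal1. They were called for 11 of 43 members, beside 18% of all genes: Dusp9 (amplitude 0.29, adjusted p = 0.016), Dusp4 (0.26), Klf11 (0.20), Dusp11 (0.19), Klf9 (0.18), Klf10 (0.17, adjusted p = 0.00656), Klf16 (0.17), Errfi1 (0.16), Dusp6 (0.15), Sgk1 (0.15) and Dusp10 (0.13). This test was added after the values were seen, and its outcome under the alternative settings is not reported here.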

How the data were processed

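RNA of NIH 3T3 cultures was sequenced as total RNA and as biotinylated 4sU RNA pulled down on streptavidin. The values are RPKM over exons and over introns as deposited by the authors, with Trim Galore, HOMER 4.11.1, mm10 and GRCm38.p6 named in the submitters' processing notes. No source used here names the aligner, and spike-ins were not analysed here.

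Libraries were scaled in each layer by the median ratio to their geometric mean, so that differences are relative to the median gene. Genes with a mean deposited RPKM of at least 0.5 (exons) or 0.1 (introns) were kept. Log2(RPKM + 0.1), or + 0.02 for introns, was fitted in limma 3.58.1 (R 4.3.3) with a mean and cosine and sine terms of 24 and 12 h per line, or with a mean and slope for drift. The empirical Bayes variance had a trend and was robust. Folds of low genes are understated on this scale. P-values were adjusted by Benjamini-Hochberg over all genes tested, and a call is an adjusted p below 0.05. Time points act as replicates, with no label of separate repeats, so p-values measure the spread between these cultures around the fitted curve. Fits were tested on simulated data.

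Read totals were recovered as the total at which the deposited RPKM give whole reads, within 0.02 of a read. Members and gene lists were chosen with earlier results of these data known. Named were the listed immediate early genes and main KLF and DUSP genes, up to 10 members a direction in each comparison, up to 4 genes a direction from other lists, and Arntl; the remaining KLF and DUSP genes are given to complete their families. Alternatives were the pseudocount, the filter, the scaling, genes of constant length, the time terms, the time point as a block and each time point left out.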

Additional observations from a re-analysis of the deposited data

Results flagged for a closer look

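The 24-h terms of Dusp4, a nuclear phosphatase of ERK and JNK, differed between the lines in total exons by a test of that difference, with an amplitude of the difference of 0.38 on the log2 scale (limma, Benjamini-Hochberg adjusted p = 0.0375). Its level in shBmal1 went from 7.04 RPKM at 26 h to 2.72 at 42 h, while shCTRL stayed between 2.32 and 3.09. With a linear time term the amplitude was 0.45 and the adjusted p 0.54. When each time point was left out in turn, the amplitude ran from 0.34 to 0.42 and the adjusted p from 0.027 to 0.192.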

How the results depend on the processing

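Over the line differences, rhythms, drifts and 4sU ratios of single members, 5503 of 5982 alternative values kept their direction and their side of the threshold, 409 lost the call, 54 gained it and 16 reversed. All 16 were 4sU intron line differences on the deposited RPKM, whose median over all genes is -0.45 in place of 0.0 and which gave 2 members higher and 31 lower: Dusp1 -0.46, Dusp10 -0.47, Dusp14 -0.32, Dusp19 -0.34, Dusp22 -0.26, Dusp3 -0.35, Dusp5 -0.06, Dusp6 -0.12, Dusp7 -0.37, Fosb -0.38, Fosl1 -0.34, Klf10 -0.07, Klf2 -0.43, Klf6 -0.45, Sgk1 -0.19 and Srf -0.21. As deposited, the 24-h terms were called for 8 members in shBmal1 4sU exons and 1 in shCTRL 4sU introns, and the 12-h terms for 2 in shBmal1 total exons. With a linear time term, 3 members were called in shCTRL total exons and 0 in shBmal1 total exons, 4sU exons and 4sU introns, and 0 for the difference between the lines. Without time terms the 4sU to total ratio was higher in 4 members and lower in 1. The cause of these changes was not tested.

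With 1 time point left out, the 24-h terms were called for 3 to 9 members in shCTRL and 4 to 13 in shBmal1 total exons, 2 to 6 and 2 to 20 in 4sU exons, and 0 to 1 and 2 to 11 in 4sU introns. The difference between the lines was called for 0 to 1 members in total exons and 0 to 3 in 4sU exons, and the 12-h terms in shBmal1 for 0 to 11. The ratio was higher for 4 to 8 members and lower for 1 to 2, and a fall in shCTRL was called for 0 to 1. The counts of members higher and lower between the lines in exons and introns stayed within 1.5 times under every time point left out.

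Cultures of the same hour did not deviate together at most hours: the correlation of their residuals was over 0.1 at 4 of 12 hours (0.442 at 24 h, 0.566 at 26 h, 0.17 at 36 h and 0.199 at 46 h) and as low as -0.657 at 32 h. They were therefore treated as sharing only a number. With the time point as a replicate block, the call was unchanged for 41 of 43 members in total exons (Dusp3 and Fosl2 lost it), 40 of 43 in 4sU exons, 37 of 41 in 4sU introns, 37 of 40 in total introns and 39 of 43 for the ratio, which was higher in 5. Among members above the intron filter, low read counts limit Ccn2, Dusp23, Fos and Dusp9 most.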

Other observations

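In exons the cultures at 26 h held the highest level of several members, a pattern chosen after the values were seen. In shCTRL, 14 of 43 members had their highest 4sU exon level at 26 h, where 13.7% of all genes did, and 8 their highest total exon level (9.84%). In shBmal1, 8 of 43 did so in 4sU exons (9.41%) and 5 in total exons (6.49%), while 14 had their highest 4sU exon level at 24 h (17.4%). In introns the shCTRL cultures at 26 h held 9 of 41 highest levels in 4sU RNA (11.4%) and 8 of 40 in total RNA (9.62%), but shBmal1 only 3 of 41 (11.9%) and 4 of 40 (10.2%). In exons, Sgk1 and Nr4a1 were highest at 26 h in all 4 groups. Nr4a1, an orphan nuclear receptor induced within minutes by many stimuli, stood at 11.4 RPKM in shCTRL total exons, where the other time points ran from 4.84 to 7.37, and at 7.64 in shBmal1, where they ran from 4.69 to 6.49. In 4sU exons Sgk1 was at 176 RPKM in shCTRL against 89.3 to 157, and at 215 in shBmal1 against 128 to 156. Klf4 at 26 h was at 137 RPKM in shCTRL total exons, below its 140 at 46 h and above the other 10 time points. The 4sU and total libraries of an hour come from 1 culture, and the excess at this hour was not tested.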
